A study of Sus scrofa with 11 samples.

Results

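Solute carriers are the membrane proteins that move amino acids, sugars, ions, metals, nucleotides and metabolites into cells and between their compartments. Their genes carry symbols that start with SLC and a family number. The present results cover the solute carrier genes of porcine *M. semimembranosus* (SM), a muscle of the ham, in pigs fed a low protein (LP) or a high protein (HP) diet. All probe sets with a single gene symbol of this kind were taken from the array, apart from SLC2A4, SLC25A1, SLC11A2 and SLC40A1, which were set aside. The 168 probe sets that remained stood for 117 genes, out of 6765 genes with a single-symbol probe set, and each gene was read by its brightest probe set, the one with the highest mean over the 11 arrays. They comprised 19 genes of the amino acid carrier families (SLC1, SLC3, SLC6, SLC7, SLC36, SLC38 and SLC43 in the rule, of which SLC43 gave no gene), 20 SLC25 mitochondrial carriers and 78 genes of the remaining families. The symbols SLC2A4RG, SLC9A3R1 and SLC9A3R2, a transcription factor and a pair of scaffold proteins named after a carrier, met the rule and were counted among the 78.

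The animals were purebred Duroc gilts of about 10 weeks of age at the start, 6 on the HP diet (217 g/kg crude protein, 13 g/kg lysine) and 5 on the LP diet (128 g/kg crude protein, 7 g/kg lysine), both diets being isoenergetic and fed for 63 days. RNA from SM tissue taken at slaughter was hybridised to Affymetrix Porcine Genome arrays, 1 per pig. The pig was taken as the replicate, and p values set the difference between diets against the spread between pigs. The gilts had been blocked on initial body weight and penned in 2 groups, and the paper does not state whether pen went with diet. If it did, diet and pen cannot be told apart. Weight block, pen and slaughter date are not known for single pigs here. They could not be put in the fit, and their part in the differences was not tested. Levels are the deposited log2 expression values of a probe set, listed for LP replicates 1 to 5 in that order, and differences are LP minus HP on that scale ± the standard error (SE) from limma (n = 6 and 5).

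Carriers for amino acids differ in their driving force. Sodium- or proton-coupled carriers accumulate amino acids, while exchangers trade one amino acid for another. When amino acids are scarce, cells are known to make more of the transcription factor ATF4, whose textbook targets include several amino acid carriers together with biosynthetic enzymes such as asparagine synthetase. In muscle, SLC25 proteins of the inner mitochondrial membrane exchange ADP for ATP and import phosphate, acylcarnitines and other substrates, and further families carry glucose, lactate, zinc and bicarbonate.

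Of the 117 solute carrier genes, 3 were higher and 7 lower in LP pigs at an unadjusted limma p of 0.05 or less. The higher ones were SLC1A4, a neutral amino acid exchanger, SLC26A6, an anion exchanger, and SLC5A1, the sodium-glucose cotransporter. The lower ones were SLC6A4 (serotonin), SLC1A1 (glutamate), SLC25A20 (acylcarnitines), SLC2A8 (hexoses), SLC30A5 (zinc), SLC34A2 (phosphate) and SLC17A1 (phosphate and organic anions). These 10 made up 8.55% of the solute carriers, against 4.73% of all 6765 genes read the same way and 5.11% of all 23999 probe sets. In the higher direction 1.57% of all genes and 2.15% of all probe sets were called, and in the lower direction 3.16% and 2.97%. None passed a Benjamini-Hochberg adjustment over all 23999 probe sets in limma, where the smallest adjusted p was 0.916 among the solute carriers and 0.644 over the array. The HP and LP levels overlapped for every one of the 117 genes, while they did not for 0.517% of all genes, 0.498% of those above background on all arrays and 0.579% of all probe sets. The number of members called was 6 in place of 10 without HP replicate 2, without LP replicate 1 and without LP replicate 3. In bulk muscle, fewer cells of a type and less RNA per cell cannot be told apart.

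Most solute carriers lay close to 0. Differences above 0 were found for 60 genes and below 0 for 57, with a median of 0.01, and the median over all genes was -0.04. The difference was smaller than its own SE for 76 of the 117. The median size of a difference was 0.18 and the median SE 0.23, which sets the scale of change that could be seen with this number of arrays.

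Carriers near background had the larger differences, of either sign. A probe set counted as above background on an array if its level passed the brightest of the 23 negative controls there, a limit between 1.96 and 3.58. By this measure 84 of the 117 genes were above background on all 11 arrays, 27 on some and 6 on none. Each array held between 93 and 102 of them above background. The 33 genes that were not above on all arrays had a median absolute difference of 0.54, against 0.13 for the 84. Among the 84, 7 genes were called, 3 higher and 4 lower, or 8.33% against 4.31% of the 5618 genes of the whole array that met the same condition (1.32% higher and 2.99% lower).

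**Figure D1:**
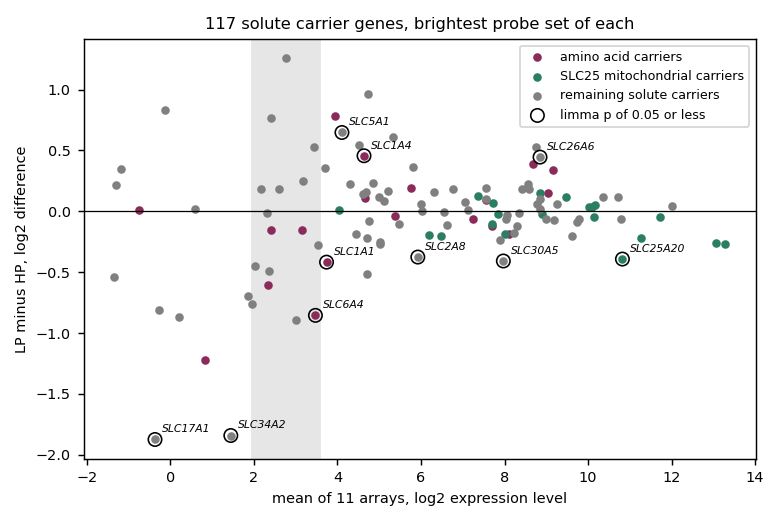
The LP minus HP log2 difference of each of the 117 solute carrier genes (vertical axis) is plotted against its mean log2 expression level over 11 arrays (horizontal axis), coloured by group, with the 10 genes at a limma p of 0.05 or less ringed and named. The grey band spans the highest negative control of the arrays (1.96 to 3.58), and the points scatter most widely in and to the left of it, where SLC17A1 and SLC34A2 lie.

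In the amino acid carrier families, SLC1A4 rose and SLC6A4 and SLC1A1 fell, with 9 of the 19 genes above 0 and 10 below. The median difference was -0.04, close to that of all genes. The 3 calls were 15.8% of the 19, against 4.73% of all genes. Of these genes 12 were above background on all arrays, 6 on some and SLC7A9 on none. The number called lay between 2 and 4 when single arrays were left out.

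SLC1A4 (ASCT1) exchanges small neutral amino acids such as alanine, serine and cysteine. Its level in the HP pigs ran from 4.09 to 4.74 with a median of 4.48, and in the LP pigs it was 5.05, 5.14, 4.85, 4.56 and 4.81. Of the 5 LP values 4 lay above the highest HP value, and LP replicate 4 fell among the upper HP pigs. The difference of 0.46 ± 0.17, or 1.37-fold higher in LP, had a limma p of 0.0205 and an exact permutation p of 0.0303. It was 0.39 and no longer passed without LP replicate 2, and the call was also lost with the trended robust prior and without HP replicates 1, 2 and 4 together (0.38).

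SLC1A4 is one of 10 amino acid carriers that were listed as targets of the amino acid response, and 4 of these were measured: SLC1A4, SLC7A1, SLC3A2 and SLC1A5. The others, SLC7A11, SLC7A5, SLC7A3, SLC38A2, SLC6A9 and SLC43A1, were not analysed here. Only SLC1A4 passed, or 25% of the 4, against 4.73% of all genes (1.57% higher). A share of 4 genes rests on single genes. The median difference of the 4 was 0.36, with 3 above 0 and SLC1A5 below. SLC7A1, SLC3A2 and SLC1A5 are given by pig.

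SLC7A1 (CAT-1) is the main uptake route for lysine and arginine in many cells. In HP pigs it ranged from 7.93 to 9.11 (median 8.51), and in LP pigs it was 8.72, 9.06, 8.78, 8.77 and 9.15. All 5 LP values exceeded those of 5 of the 6 HP pigs, and only HP replicate 4 lay among them. The difference of 0.39 ± 0.19 did not pass (limma p = 0.0657, exact permutation p = 0.0693). Without HP replicate 4 it was 0.51 and passed. It also passed with the trended robust prior, with array weights (0.49), with dim probe sets left out and without HP replicates 1, 2 and 4 together (0.54).

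SLC3A2 is the heavy chain (4F2hc) that brings several SLC7 light chains to the cell surface. Its HP levels ran from 8.56 to 9.87 (median 8.84) and its LP levels were 9.33, 8.83, 9.76, 9.47 and 9.30. HP replicate 4 was again the highest of the HP pigs, and LP replicate 2 was level with the HP median. The difference was 0.34 ± 0.24 (limma p = 0.190, exact permutation p = 0.190), and 0.52, past the threshold, without HP replicate 4.

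SLC1A5 (ASCT2), a glutamine exchanger of the same family as SLC1A4, lay on the other side of 0. It ranged from 7.85 to 8.68 in HP pigs (median 8.15) and stood at 8.22, 7.97, 8.02, 7.70 and 8.10 in LP pigs. LP replicate 4 lay below all HP pigs, and the rest lay within the HP range. Its difference of -0.19 ± 0.17 (limma p = 0.286, exact permutation p = 0.279) had a 95% interval from -0.55 to 0.18.

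**Figure D2:**
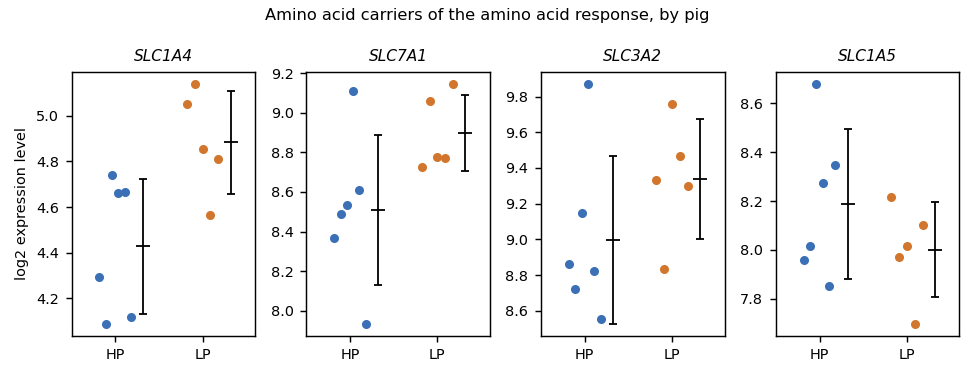
Log2 expression levels of SLC1A4, SLC7A1, SLC3A2 and SLC1A5 (vertical axes, scaled separately) are plotted for the 6 HP and 5 LP pigs, points for pigs, bars for mean ± SD. HP replicate 4 is the highest HP pig for SLC7A1 (9.11) and SLC3A2 (9.87), and SLC1A4 is the only one of the 4 at a limma p of 0.05 or less.

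SLC1A1 (EAAT3), a sodium-coupled glutamate and aspartate carrier, fell by 0.42 on the log2 scale (SE 0.18) in LP pigs. HP levels were 3.66 to 4.25 (median 3.92), and LP levels were 3.16, 3.80, 3.55, 3.93 and 3.11. LP replicates 1, 3 and 5 lay under all 6 HP pigs, and LP replicates 2 and 4 were within the HP range. Background was exceeded in all pigs but was near, with LP replicate 5 at 3.11 against a limit of 2.98 on that array. The limma p was 0.0391 and the exact permutation p 0.0433. The call was lost without HP replicate 3 (-0.43), 4 (-0.35), 5 (-0.40) or 6 (-0.41), and without LP replicate 1 (-0.33), 3 (-0.43) or 5 (-0.32). It was lost as well with the trended robust prior, with array weights (-0.35) and without HP replicates 1, 2 and 4 together (-0.44). SLC1A1 was also read by 4 dimmer probe sets, none above background on more than 3 of the 11 arrays. One of them was higher in LP by 1.56 ± 0.57 (limma p = 0.0186, exact permutation p = 0.0411), with an HP mean of 1.36 and an LP mean of 2.93, and the others ranged from -0.96 to 0.35. The mean of all 5 probe sets differed by 0.14, so the direction for this gene depended on the probe set.

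SLC6A4 is the serotonin transporter and belongs to the SLC6 family although it does not carry an amino acid. It was the member with the smallest limma p of all 117 and fell by 0.85 on the log2 scale (SE 0.28), or 1.81-fold. HP levels ranged from 3.40 to 4.50 (median 3.75), and LP levels were 2.91, 3.46, 3.52, 2.07 and 3.07. Only LP replicates 2 and 3 exceeded the lowest HP pig. The limma p was 0.0108 and the exact permutation p 0.00866, and leaving out any single array left a limma p of 0.05 or less. Without HP replicates 1, 2 and 4 together it was not called (-0.85). These levels lie near background, which the gene exceeded in 6 HP and 4 LP pigs.

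The other amino acid carriers did not pass. SLC36A2, a proton-coupled carrier for glycine and proline, differed by 0.78 ± 0.62. Its HP levels spread from 1.13 to 4.98. SLC6A8, the creatine transporter of muscle, differed by 0.15 ± 0.19 with an interval from -0.27 to 0.57. SLC7A7, a light chain that pairs with SLC3A2, differed by 0.10 ± 0.14. SLC38A9, the lysosomal carrier that reports arginine to mTORC1, stood at -0.12 ± 0.13, and SLC38A10, a further SLC38 carrier, at 0.19 ± 0.20. The glutamate carrier SLC1A6 and the broad amino acid carrier SLC6A14 were above background in 1 and 2 HP pigs and in no LP pig, with limma p values of 0.0873 and 0.213 (exact permutation p = 0.123 and 0.262). SLC1A6 passed without LP replicate 5, at -1.62.

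**Figure D3:**
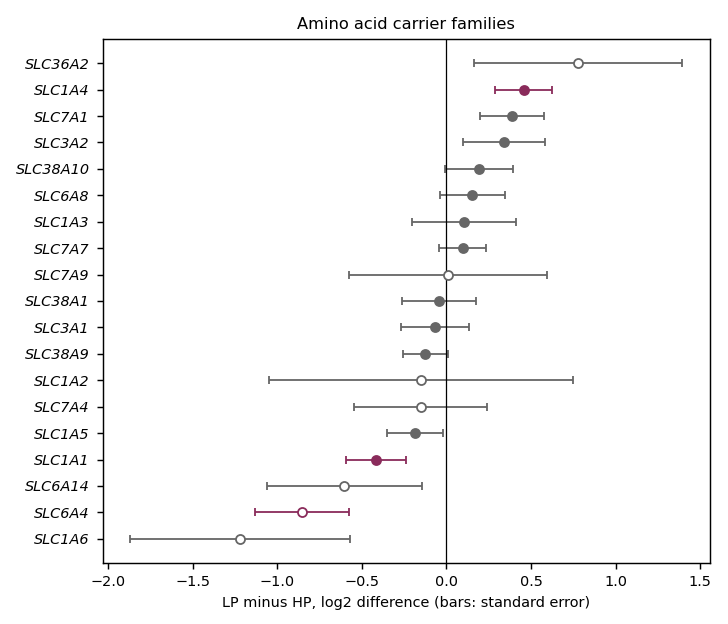
The LP minus HP log2 difference ± SE (horizontal axis) is shown for the 19 genes of the amino acid carrier families, ordered by difference. Purple marks the 3 genes at a limma p of 0.05 or less (SLC1A4, SLC1A1 and SLC6A4), filled points mark the 12 genes above background on all 11 arrays, and open points the others. The widest bars belong to open points.

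The intracellular arm of the amino acid response was read from a list of 21 genes other than carriers, of which 11 were measured. Of these, 4 rose and none fell at the threshold, against 1.57% of all genes higher and 3.16% lower. Of the 4, ATF5 was above background on no array. The differences of the 11 lay above 0 for 7 and below 0 for 4, with a median of 0.33. Those below 0 were ATF4, VEGFA (-0.17), CEBPB (-0.12) and PSAT1 (-0.05). ASNS, asparagine synthetase, rose by 0.64 ± 0.22 (limma p = 0.0158, exact permutation p = 0.0260), DDIT3 (CHOP) by 0.67 ± 0.15 and ATF3 by 0.95 ± 0.34 (ATF3 limma p = 0.0179, exact permutation p = 0.0303). ASNS, DDIT3 and ATF3 were called whichever single array was left out. ATF5 (limma p = 0.0426, exact permutation p = 0.0671) lost its call once HP replicate 1 (0.89), 3 (0.96) or 6 (0.98) or LP replicate 1 (1.11), 2 (0.95), 4 (0.92) or 5 (1.11) was left out. ATF4, which is known to be controlled mainly through its translation, differed by -0.18 ± 0.15. This list was chosen with these results known, and ASNS and DDIT3 were also chosen by the study on the same pigs. The carriers of the response and this list come from the same arrays.

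Among the 20 SLC25 mitochondrial carriers, SLC25A20 fell and none rose. The single call among 20 genes stands beside 4.73% of all genes, near 1 in 20. Differences of the brightest probe sets ran from -0.39 to 0.15, with 8 above 0, 12 below and a median of -0.03. All but SLC25A48 were above background on all 11 arrays. A dimmer probe set of SLC25A24, above background on all arrays, lay outside this range at -0.50 ± 0.23. It did not pass (limma p = 0.0531, exact permutation p = 0.0649).

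SLC25A20 is the carnitine-acylcarnitine carrier, which brings long-chain acyl groups into the mitochondrial matrix for beta-oxidation. Its HP levels ran from 10.62 to 11.33 (median 11.03) and its LP levels were 10.65, 10.28, 10.69, 10.99 and 10.44. HP replicate 3 was the lowest HP pig and LP replicate 4 the highest LP pig, and all other LP pigs lay below all other HP pigs. The decrease of 0.39 ± 0.16, or 1.31-fold, had a limma p of 0.0332 and an exact permutation p of 0.0325, and after quantile normalization it was 0.35 (limma p = 0.0133). The call was lost without HP replicate 1 (-0.38), 2 (-0.37), 4 (-0.33) or 5 (-0.39), and without LP replicate 1 (-0.40), 2 (-0.31) or 5 (-0.35).

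The carriers of oxidative phosphorylation did not pass. SLC25A4, the ADP/ATP carrier of heart and muscle, ranged from 12.90 to 13.83 in HP pigs (median 13.49) and stood at 12.92, 13.04, 13.04, 13.40 and 13.28 in LP pigs. The LP pigs sat in the lower and middle part of the HP range, and HP replicate 3 sat below them all. Its difference was -0.27 ± 0.18 (limma p = 0.164, exact permutation p = 0.152). SLC25A3, the phosphate carrier, differed by -0.26 ± 0.17 (limma p = 0.163, exact permutation p = 0.154). For the ADP/ATP carrier SLC25A6 the difference was -0.22 ± 0.14 (limma p = 0.157, exact permutation p = 0.141). Without HP replicate 3 the first 2 passed, at -0.37 and -0.35, and 3 SLC25 genes in all were called, while without HP replicates 1, 2, 4 or 5, or LP replicates 1, 2 or 5, none was.

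These differences moved with the scaling of the arrays and with HP replicates 1, 2 and 4. After quantile normalization SLC25A4 differed by -0.06, SLC25A3 by -0.07 and SLC25A6 by -0.16. With HP replicates 1, 2 and 4 left out together SLC25A4 differed by 0.01 and SLC25A20 by -0.23, which did not pass. HP replicates 1, 2 and 4 had the highest mean of the 6 brightest SLC25 carriers (11.94 to 12.04) and the highest mean of the spike-in controls (12.04 to 12.22). Leaving out the HP pigs with the highest carrier levels lowers the HP mean of these carriers by construction. The part that the spike-in level has in these values was not tested. Over all pigs the mean of the 6 differed by -0.19 between LP and HP (exact permutation p = 0.171).

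The other SLC25 genes named for their level or p did not pass either. SLC25A12, the aspartate-glutamate carrier of muscle, differed by -0.05 ± 0.19, and by 0.03 after quantile normalization. SLC25A51, which imports NAD+, differed by -0.19 ± 0.16 and SLC25A36, a pyrimidine nucleotide carrier, by -0.20 ± 0.19. SLC25A38, the glycine carrier of haem synthesis, stood at -0.19 ± 0.25 and SLC25A39, linked to mitochondrial glutathione, at 0.15 ± 0.19. SLC25A30 differed by 0.05 ± 0.15.

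**Figure D4:**
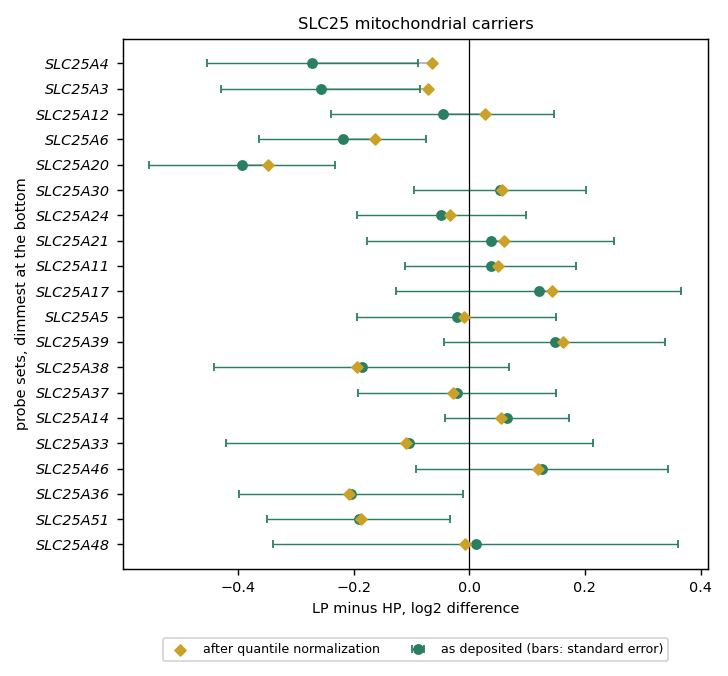
The LP minus HP log2 difference (horizontal axis) of the 20 SLC25 genes is shown as deposited (green, bars are SE) and after quantile normalization (yellow), with the dimmest probe set at the bottom. The brightest ones, SLC25A4 and SLC25A3, move from -0.27 and -0.26 to -0.06 and -0.07, and SLC25A20 stays at -0.35 or lower in both.

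Of the 78 remaining genes, 2 rose and 4 fell, or 7.69% against 4.73% of all genes (1.57% higher and 3.16% lower). Among the 78, 43 lay above 0 and 35 below, with a median of 0.03. Of them 53 were above background on all arrays and 5 on none. Without HP replicate 2 or LP replicate 3 the number called was 3 in place of 6.

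The families of sugar carriers (17 genes, grouped by family number) had 1 gene higher, 1 lower and a median of 0.10. The transcription factor SLC2A4RG is counted among the 17, and the median is its own value. The calls were 11.8% of the 17, against 4.73% of all genes. A share in a group this small rests on single genes. SLC2A8 (GLUT8), a hexose carrier of intracellular membranes, fell by 0.38 on the log2 scale (SE 0.13), or 1.30-fold. It ranged from 5.84 to 6.34 in HP pigs (median 6.10), and LP pigs had 5.93, 5.62, 5.72, 5.82 and 5.51. Only LP replicate 1 lay above the lowest HP pigs. The limma p was 0.0174 and the exact permutation p 0.0173, and SLC2A8 was called whichever single array was left out. It did not pass with the trended robust prior or without HP replicates 1, 2 and 4 together (-0.30).

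SLC5A1 (SGLT1) is the sodium-glucose cotransporter known from the intestine and kidney. It ranged from 3.25 to 4.21 in HP pigs (median 3.86) and was 4.31, 4.88, 5.01, 3.52 and 4.58 in LP pigs. All LP pigs but replicate 4 lay above the HP range. The gene exceeded background in all pigs but lay near it, with HP replicate 4 at 3.94 against a limit of 3.58 on that array. The difference of 0.65 ± 0.27, or 1.57-fold higher in LP, had a limma p of 0.0339 and an exact permutation p of 0.0541. It was lost without HP replicate 1 (0.64), 2 (0.54) or 3 (0.64), and without LP replicate 2 (0.54), 3 (0.51) or 5 (0.62), and also with the trended robust prior and without HP replicates 1, 2 and 4 together (0.48).

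The other sugar carriers did not pass. SLC2A1 (GLUT1), the widely expressed glucose carrier, differed by 0.18 ± 0.23 and SLC2A12 by 0.18 ± 0.24. SLC37A4, the glucose-6-phosphate carrier of the endoplasmic reticulum, differed by 0.04 ± 0.24. SLC2A5 (GLUT5), the fructose carrier, spread more between pigs of a group than any other of the 84 genes above background on all arrays. Its within-group SD was 1.31, against a median of 0.31 and a lowest of 0.12 among the 84, and 11 of them had an SD over 0.5. HP pigs ran from 6.98 to 8.93 (median 8.25) and LP pigs had 4.90, 8.72, 8.47, 9.37 and 7.39. LP replicate 1 stood far below the rest, and the difference was -0.23 ± 0.73 with it and 0.48 without it.

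The 4 carriers of monocarboxylates and fatty acids all lay above 0 by their brightest probe sets, with a median of 0.30 and no call. For SLC27A6 the difference was 0.54 ± 0.63, with 5 HP and 5 LP pigs above background. A dimmer probe set of SLC27A6, above background in all 6 HP and 5 LP pigs, differed by -0.14 ± 0.25. SLC16A13 differed by 0.06 ± 0.22. SLC16A3 (MCT4), which exports lactate from glycolytic fibres, ranged from 7.66 to 9.18 in HP pigs (median 8.57) and stood at 8.25, 9.15, 9.21, 9.29 and 9.30 in LP pigs. LP replicates 3 to 5 lay above all HP pigs, LP replicate 2 below only the highest of them, and LP replicate 1 below the HP median. The difference of 0.53 ± 0.29 did not pass (limma p = 0.0971, exact permutation p = 0.121). It was 0.67 without HP replicate 4 and 0.73 without LP replicate 1, and passed in both, and it passed with array weights (0.59) and without HP replicates 1, 2 and 4 together (0.96). SLC27A1 (FATP1), a fatty acid transport protein of muscle, differed by 0.08 ± 0.19.

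Of the 14 genes in the families for inorganic ions and bicarbonate, 1 rose and 1 fell, or 14.3% against 4.73% of all genes. The scaffold proteins SLC9A3R1 and SLC9A3R2 are counted among the 14 by their family number. SLC26A6, an exchanger of chloride, bicarbonate and oxalate, rose by 0.45 ± 0.15, or 1.36-fold, the smallest limma p among the genes that rose (0.0144, exact permutation p = 0.0108). HP levels ranged from 8.23 to 8.93 (median 8.78), and LP levels were 8.90, 9.17, 9.05, 9.18 and 9.17. Every LP pig but replicate 1 lay above all HP pigs, and replicate 1 fell short of only HP replicate 4. It was called whichever single array was left out.

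**Figure D5:**
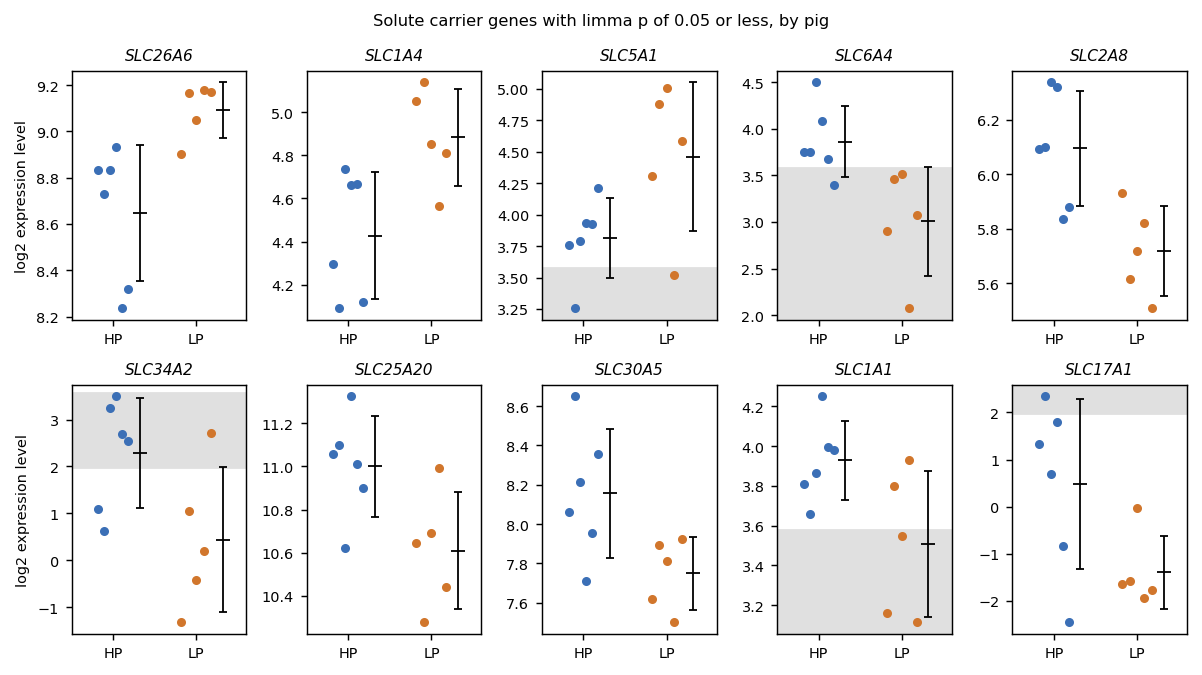
Log2 expression levels of the 10 genes at a limma p of 0.05 or less are plotted by pig for the 6 HP and 5 LP pigs (vertical axes, scaled separately), with bars for mean ± SD. The grey band is the span of the highest negative control of the arrays (1.96 to 3.58). The HP and LP points overlap in each panel, and all points of SLC17A1 and SLC34A2 lie in or below the band.

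SLC4A2 (AE2), a chloride-bicarbonate exchanger, ranged from 5.36 to 6.01 in HP pigs and from 5.55 to 6.27 in LP pigs, where replicate 4 was the lowest. Its difference of 0.37 ± 0.17 had a limma p of 0.0512 (exact permutation p = 0.0563), and it passed after quantile normalization (limma p = 0.0397), without HP replicate 3 (0.44) and without LP replicate 4 (0.48). SLC8A1, the sodium-calcium exchanger, differed by 0.53 ± 0.25 (limma p = 0.0558, exact permutation p = 0.0693). It passed when LP replicate 2 (0.66), HP replicate 1 (0.63) or HP replicate 3 (0.60) was left out. It was above background in 4 HP and 5 LP pigs. The sodium bicarbonate cotransporter SLC4A4 differed by 0.61 ± 0.47.

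SLC34A2, a sodium-phosphate cotransporter, was above background in 1 HP and no LP pig. Its levels ranged from 0.62 to 3.50 in HP pigs and were -1.33, 1.04, -0.42, 0.19 and 2.72 in LP pigs. No fold is given for a gene at this level. Its limma p was 0.0318 and its exact permutation p 0.0584, and the difference of -1.84 ± 0.75 was -0.22 and did not pass once low values were raised to the 20th percentile. The call was also lost without HP replicate 3 (-1.65), 4 (-1.60), 5 (-1.76) or 6 (-1.79), and without LP replicate 1 (-1.40), 3 (-1.63) or 4 (-1.78).

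Of the 12 metal ion carriers, 1 fell and none rose, or 8.33% against 4.73% of all genes. Their median was -0.06. SLC30A5 (ZnT5), which loads zinc into the early secretory pathway, fell by 0.41 on the log2 scale (SE 0.17), or 1.33-fold. HP levels ran from 7.71 to 8.65 (median 8.14), and LP levels were 7.62, 7.89, 7.81, 7.50 and 7.92. Of the 6 HP pigs 5 lay above every LP pig, and HP replicate 4 lay among the LP pigs. The limma p was 0.0368 and the exact permutation p 0.0368. Both dimmer probe sets of SLC30A5 were above background on all arrays and differed by -0.17 and 0.02, and the mean of the probe sets differed by -0.19, which did not pass. The call was lost without HP replicate 2 (-0.31), 3 (-0.40) or 6 (-0.37), and without LP replicate 1 (-0.38), 3 (-0.42) or 4 (-0.35).

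SLC39A1 (ZIP1), which imports zinc at the cell surface, differed by -0.20 ± 0.11 with a limma p of 0.0838 and an exact permutation p of 0.0260. Its dimmer probe set, above background on all arrays, differed by -0.28 ± 0.12 (limma p = 0.0407, exact permutation p = 0.0130). SLC39A5, also a zinc importer, differed by 1.26 ± 0.73 and was above background in 3 HP and 4 LP pigs. The magnesium carrier SLC41A1 and the copper carrier SLC31A2 differed by -0.06 ± 0.11 and 0.12 ± 0.23, and SLC31A2 passed without HP replicates 1, 2 and 4 together (0.47).

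None of the 20 carriers of nucleosides, nucleotide sugars and vitamins was called, and their median was -0.04. SLC35B1, a nucleotide carrier of the endoplasmic reticulum, differed by -0.09 ± 0.12 and SLC35F5, of the same family, by -0.07 ± 0.13. Among the 11 carriers of organic cations, anions, choline and peptides, SLC17A1 was the single call, and the median was 0.12. That call was 9.09% of the 11, against 4.73% of all genes. SLC17A1, a phosphate and organic anion carrier known from the kidney, was above background on no array, so no fold is given. SLC17A1 levels ran from -2.46 to 2.35 in HP pigs and were -1.65, -1.58, -0.02, -1.95 and -1.77 in LP pigs, with a difference of -1.87 ± 0.80 (limma p = 0.0397, exact permutation p = 0.0606). It was lost without HP replicate 1 (-1.70), 2 (-1.50), 3 (-1.83) or 4 (-1.61), and without LP replicate 1 (-1.81), 2 (-1.83), 4 (-1.74) or 5 (-1.78), and also with array weights (-1.47) and without HP replicates 1, 2 and 4 together (-0.53). SLC22A5 (OCTN2), the carnitine importer of muscle, differed by 0.16 ± 0.19. SLC44A2, a choline carrier, differed by 0.12 ± 0.14, and SLC15A2, a peptide carrier, by 0.97 ± 0.57 with an HP range from 1.97 to 5.38.

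Proteins that work beside solute carriers were read from a list of 20 genes, of which 14 were measured. Of these 1 fell, or 7.14% against 4.73% of all genes, none rose and the median was -0.13. ATP1B1, the beta subunit of the sodium pump that powers sodium-coupled carriers, ranged from 11.62 to 12.53 in HP pigs and was 11.80, 11.62, 11.61, 11.93 and 11.81 in LP pigs. It fell by 0.44 on the log2 scale (SE 0.17, limma p = 0.0246, exact permutation p = 0.0260). It no longer passed when LP replicate 2 (-0.40), LP replicate 3 (-0.40) or HP replicate 2 (-0.39) was left out, nor at -0.19 without HP replicates 1, 2 and 4 together. VDAC1 and VDAC3, the channels of the outer mitochondrial membrane, differed by -0.25 ± 0.17 and -0.24 ± 0.16, and both passed without HP replicate 3, at -0.34 and -0.33.

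Over the 10 called genes, the exact permutation p was 0.05 or less for 7 of them, 7 were above background on all arrays, and 3 (SLC6A4, SLC26A6 and SLC2A8) were called whichever single array was left out. Of these 3, only SLC26A6 was also called without HP replicates 1, 2 and 4 together. That fit has fewer HP pigs, and SLC6A4 lost its call there although its difference was -0.85 in both fits. Among the solute carrier genes not called, SLC39A1 alone had an exact permutation p of 0.05 or less.

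Markers of the cell types that a muscle sample holds were set beside the carriers. The tissue label was checked against 11 skeletal muscle markers, of which 7 were measured, and these were above background on all arrays. The log2 of their summed linear levels was 15.86 to 16.83 in HP and 15.96 to 16.40 in LP pigs (difference -0.24, exact permutation p = 0.260). All 7 lay below 0, with a median of -0.25 that became 0.00 after quantile normalization, beside -0.27 and -0.06 for SLC25A4 and -0.39 and -0.35 for SLC25A20. Their part in these results was not tested.

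No marker of any of the 7 lists was called. The log2 of the summed linear levels ran from 12.7 to 13.5 in HP and from 12.8 to 13.3 in LP pigs for adipocytes (6 of 8 measured). It ran from 12.0 to 12.7 and 12.1 to 12.5 for endothelium (7 of 8), and from 9.10 to 10.5 and 9.35 to 10.1 for macrophages (5 of 7). For fibroblasts (4 of 6) it ran from 12.5 to 13.0 and 12.6 to 12.9, for red blood cells (3 of 6) from 9.79 to 10.5 and 10.2 to 10.5, and for nerve and Schwann cells (3 of 6) from 9.78 to 10.7 and 9.40 to 10.5. The ranges overlapped in each list. The adipocyte sum rests mainly on FABP4 and LPL (mean levels 12.2 and 11.9), beside 5.15 for LEP and 6.45 for ADIPOQ. Of the 6 adipocyte genes 5 lay above 0, and LEP differed by 0.74 ± 0.34 (limma p = 0.0533, exact permutation p = 0.0887). The fibroblast gene DCN differed by -0.28 ± 0.13 (limma p = 0.0525, exact permutation p = 0.0346). The paper reported more intramuscular fat in LP pigs, and these sums were not tested against it. AHSP of the red blood cell list was above background on no array, and STMN2 of the nerve list on 1.

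All 11 arrays had the same median level of 6.72, as the deposited values were scaled, and between 74.9% and 85.3% of probe sets lay above background. The spike-in controls, transcripts added before hybridisation, averaged 11.3 to 12.2 in HP and 11.4 to 11.8 in LP pigs (difference -0.26, exact permutation p = 0.186), and the gap between the 3′ and 5′ actin probe sets differed by -0.43 (exact permutation p = 0.123).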

How the data were processed

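For each probe set the authors deposited a log2 expression level, made from Affymetrix Porcine Genome arrays in R and Bioconductor with puma. How they corrected background and normalised is not given in the sources used here, and the levels were used as deposited. Groups follow the diet in the sample labels. The array holds 24123 probe sets. Apart from 124 controls, LP minus HP was fitted for all, 23999 in number, in R 4.3.3 with limma 3.58.1 (empirical Bayes, constant prior, two-sided). The call was an unadjusted p of 0.05 or less, the level used by the study, since the puma method needs probe-level uncertainty that these levels do not carry. Adjusted p values are Benjamini-Hochberg over all 23999. Exact permutation tests ran over all splits of the arrays into 6 and 5, two-sided, with a smallest possible p of 0.00433. The fit was tested on simulated data.

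Gene symbols came from the platform annotation (1 symbol for 10069 probe sets, several for 198, none for 13732), and all 117 were found in the RefSeq gene table. The 5 probe sets with several symbols that include a solute carrier were left out. Of the 117 genes 80 had 1 probe set and 37 had several, 51 dimmer ones in all, of which 25 were above background on all arrays and 2 passed. Where no array or few arrays of a group rose above the negative controls, no fold is given.

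The members, gene lists and tests were chosen with earlier results of these data known. Named are all called members, in each group the 6 brightest and the 4 with the next smallest p, the carriers listed for the amino acid response, genes whose dimmer probe set passed where the brightest did not, and the leading genes of the other lists. SLC2A1, SLC2A5, SLC2A12, SLC22A5, SLC27A1, SLC4A4, SLC15A2 and SLC39A5 were named for their role or spread after their values were seen, as were the marker genes AHSP and STMN2. Alternatives were quantile normalization, centring on the median, a filter on dim probe sets, raising low values to the 20th percentile, array weights, a trended robust prior, a block for the replicate number, leaving out arrays 1 at a time, leaving out HP replicates 1, 2 and 4 together, the mean of a gene's probe sets, the permutation test and adjusted p values. The fit without HP replicates 1, 2 and 4 leaves out the HP pigs with the highest spike-in and bright SLC25 means. It has fewer HP pigs, so a lost call there does not by itself show a smaller difference. Probe-level intensities were not used here.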

Additional observations from a re-analysis of the deposited data

Results flagged for a closer look

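In the named genes, 112 groups of 5 or 6 arrays were searched for a single pig far from the rest of its group with Dixon's test, which flags about 1 in 20 groups by chance. It marked 9 groups in 8 genes.

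Of the carriers, the lactate exporter SLC16A3 stood at 8.25 in LP replicate 1, with the other LP pigs from 9.15 to 9.30. The glucose-6-phosphate carrier SLC37A4 was at 11.4 in the same pig, and at 12.1 to 12.3 in the other LP pigs. SLC25A39 was high in LP replicate 1 (9.40, the others 8.74 to 8.87) and in HP replicate 2 (9.49, the others 8.55 to 8.78). SLC7A7, a light chain of amino acid exchangers, was low in HP replicate 3 (7.06, the others 7.54 to 7.68).

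The peptide carrier SLC15A2 was low in HP replicate 4 (1.97, the others 4.21 to 5.38), which was below the negative controls of that array. SLC17A1 was at -0.020 in LP replicate 3, with the other LP pigs from -1.95 to -1.58, all of them below background. Beyond the carriers, the outer mitochondrial channel VDAC3 was at 12.6 in LP replicate 4 (the others 12.3) and VEGFA, a target of the amino acid response, at 12.0 in HP replicate 3 (the others 12.4 to 12.6).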

How the results depend on the processing

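With 6 and 5 arrays, the calls stood close to the threshold. Over the named genes, 1021 values under the alternatives kept their direction and side of the threshold, 80 dropped out of the call, 26 entered it and 27 changed sign. No member passed after Benjamini-Hochberg adjustment in limma (0 of 117, against 10 unadjusted). With probe sets below the median level left out, 710 probe sets were called in place of 1227, 4 members in place of 10, 2 of the remaining families and 1 amino acid carrier. That carrier was SLC7A1, which did not pass with all probe sets in the fit, and the median of the group became 0.10. The filter removes probe sets. Averaging a gene's probe sets gave an amino acid carrier median of 0.080, and turned SLC1A1 to 0.14 and SLC41A1 to 0.12. Quantile normalization turned SLC25A12 to 0.027 and ATF4 to 0.0036, and array weights turned SLC25A30 to -0.0100. The trended robust prior ended the calls of SLC1A4, SLC1A1, SLC2A8, SLC5A1 and ATF5. With low values raised, SLC17A1 had no value, as all its levels were raised.

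The replicate numbers gave no sign of pairing the pigs. With probe-set means removed, the correlations of same-numbered arrays were -0.15, 0.04, 0.01, 0.09 and 0.06. The levels themselves correlated at 0.939 to 0.980 between arrays. With the replicate number as a block, 1232 probe sets, 6 members and 1 amino acid carrier were called, and SLC37A4 turned to -0.052. HP replicate 6 has no LP partner and adds nothing to this fit. SLC1A4 (0.39), SLC26A6 (0.38), SLC5A1 (0.73), SLC30A5 (-0.37), SLC1A1 (-0.41) and ATF3 (0.74) were lost in it.

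Without HP replicates 1, 2 and 4 together, 1884 probe sets and 1 amino acid carrier were called. That carrier was SLC7A1 (0.54), while SLC6A4, SLC1A4, SLC1A1, SLC2A8, SLC5A1, SLC17A1, SLC25A20 and ATP1B1 dropped out and SLC16A3 and SLC31A2 entered. Signs changed for SLC38A10 (-0.036), SLC35F5 (0.037), SLC2A5 (0.25), SLC25A6 (0.020), SLC25A4 (0.013), SLC25A30 (-0.025), SLC25A12 (0.22), ATF4 (0.028), VDAC1 (0.022) and VDAC3 (0.0040). The cause was not tested.

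When single arrays were left out, the number called was 1066 to 1521 over all probe sets, 6 to 10 among the members, 3 to 6 in the remaining families, 2 to 4 among amino acid carriers and 0 to 3 among SLC25 carriers. Sign changes were seen for SLC27A1 (-0.073 to 0.19), SLC2A5 (-0.63 to 0.48), SLC37A4 (-0.063 to 0.21), SLC25A30 (-0.033 to 0.15) and SLC25A12 (-0.15 to 0.053).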

Other observations

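HP replicate 3 and LP replicate 1 were the lowest pigs of their groups for several carriers of muscle fuel. For SLC16A3 they had 7.66 and 8.25, for SLC37A4 11.5 and 11.4, for SLC2A12 7.94 and 7.89, for SLC2A5 6.98 and 4.90, for the phosphate carrier SLC25A3 12.7 and 12.7, and for the ADP/ATP carrier SLC25A4 12.9 and 12.9. This was not confined to carriers. The same pigs were lowest for the muscle markers TTN (13.29 and 13.37), CKM (13.15 and 13.22) and MYH2 (13.18 and 13.21). For the markers TNNC2, TNNT3, MYH7 and DES they were not both the lowest. The same arrays had the lowest spike-in means of their groups, at 11.3 and 11.4. The carriers named here were chosen after their values were seen, and the part of the spike-in level was not tested.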
